A study of Mus musculus with 9 samples.

Results

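A set of 10 long noncoding RNAs tied to stress and growth was followed in HEI-OC1 cells, among 30411 genes in the deposited expression table. They were taken by gene symbol, and the list is Malat1, Neat1, Mir22hg, Dnm3os, Mir17hg, Trp53cor1, Pvt1, H19, Kcnq1ot1 and Meg3. HEI-OC1 is an immortalised mouse line from the organ of Corti, the sensory epithelium of the inner ear. It comes from the Immortomouse and so carries a temperature-sensitive SV40 large T antigen, a viral protein that binds p53, and the culture temperature is not given in the sources used here. The 9 libraries fall into 3 groups of 3, all of the same line. Pretreated H2O2 cells received a selenium-containing nanoreactor and then hydrogen peroxide, H2O2 cells received hydrogen peroxide alone, and control cells were untreated. Titles name the nanoreactor SCGS, descriptions HCS@Se and the series HSC@Se, which were all taken to mean 1 agent. Its dose and timing are missing from the labels, as is a group with the nanoreactor but no H2O2. The labels call the 3 libraries of a group replicate biosamples and do not say whether they were separate cultures, so p-values measure the spread between these libraries, which may be technical.

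Long noncoding RNAs are transcripts that act as RNA or by being transcribed, without being translated. Malat1 sits in nuclear speckles, where splicing factors gather, and Neat1 is the scaffold of paraspeckles, nuclear bodies that assemble under stress. Mir22hg, Dnm3os and Mir17hg are host RNAs whose processing by Drosha and Dicer releases microRNAs. Trp53cor1 (lincRNA-p21) is a p53 target transcribed next to Cdkn1a, and Pvt1 lies beside Myc, whose protein it is known to stabilise in human cells. H19, Kcnq1ot1 and Meg3 come from imprinted clusters, in which only the copy from 1 parent is expressed. H19 and Meg3 are made from the maternal chromosome, and Kcnq1ot1 is made from the paternal one and silences its neighbours in cis.

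The 3 hosts Mir17hg, Mir22hg and Dnm3os changed in every comparison, so the microRNAs that lie in their exons are shown first. In each line the capitals mark the seed, bases 2 to 8 of the mature strand, which pairs with target mRNAs. Sequences are RefSeq's on GRCm38.p6. In Mir17hg, the microRNAs miR-17-5p and miR-20a-5p shared 1 seed, miR-19a-3p and miR-19b-3p shared another, and miR-18a-5p and miR-92a-3p each had their own.
miR-17-5p (Mir17hg): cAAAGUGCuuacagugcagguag
miR-20a-5p (Mir17hg): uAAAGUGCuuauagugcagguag
miR-18a-5p (Mir17hg): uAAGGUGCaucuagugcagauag
miR-19a-3p (Mir17hg): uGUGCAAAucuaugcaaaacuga
miR-19b-3p (Mir17hg): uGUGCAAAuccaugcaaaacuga
miR-92a-3p (Mir17hg): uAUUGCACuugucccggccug
miR-22-3p (Mir22hg): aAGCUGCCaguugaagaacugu
miR-199a-5p (Dnm3os): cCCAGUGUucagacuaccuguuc
miR-199a-3p (Dnm3os): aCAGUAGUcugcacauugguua
miR-214-3p (Dnm3os): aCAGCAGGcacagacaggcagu
The libraries were made from polyadenylated RNA and do not measure mature microRNAs. Counts on the hairpin genes inside these 3 hosts came to at most 3 per group, so the values below are levels of the host RNA, not of the microRNA.

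Libraries held between 55395418 and 67215208 counts. Genes with at least 1 count numbered 24043 to 24141 in pretreated H2O2 libraries, 20502 to 20920 in H2O2 libraries and 20102 to 20741 in control libraries. Of 14 hair cell markers, 13 were under 0.1 FPKM (a library-scaled count of fragments for each kilobase of RNA) in control cells, among them Atoh1, Pou4f3, Myo7a and Slc26a5. The labelled origin in the sensory epithelium is therefore not visible in defining hair cell genes. Of 11 supporting cell markers, 2 had at least 1 FPKM in control cells. Of 13 mesenchymal markers, 10 had at least 1 FPKM there, while Thy1, Lum and Dcn were under 0.1 FPKM. The 13 summed to 1044 to 1053 FPKM in pretreated H2O2 cells, 1220 to 1230 FPKM in H2O2 cells and 1253 to 1261 FPKM in control cells. The part of these markers in the results below was not tested. In bulk RNA, fewer expressing cells and less RNA per cell cannot be told apart.

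Levels per length spanned a wide range. Malat1 was the most abundant of the set in every group and Mir22hg the second, and Meg3 was at or near 0. In control cells the mean FPKM ran from Malat1 (31.3 ± 0.083) through Mir22hg (9.04 ± 0.80), Neat1 (2.40 ± 0.092), Dnm3os (1.48 ± 0.047), Pvt1 (1.03 ± 0.042) and Mir17hg (0.899 ± 0.12) to H19 (0.204 ± 0.097), Kcnq1ot1 (0.0360 ± 0.0079) and Trp53cor1 (0.0182 ± 0.016; SD, n = 3 each). In that order the libraries of Pvt1 and Mir17hg overlapped, and so did the SDs of Kcnq1ot1 and Trp53cor1. In H2O2 cells Mir22hg (2.93 ± 0.25) and Neat1 (2.78 ± 0.069) overlapped between libraries, as did Mir17hg (0.275 ± 0.087) with H19 (0.164 ± 0.046) and H19 with Dnm3os (0.144 ± 0.0092; SD, n = 3 each). In pretreated H2O2 cells no neighbours in the order overlapped, from Malat1 (11.0 ± 0.30) through Mir22hg (5.38 ± 0.46), Pvt1 (3.25 ± 0.0026), Neat1 (2.15 ± 0.14) and Mir17hg (1.44 ± 0.087) down to H19 (0.0483 ± 0.022; SD, n = 3 each). Dnm3os ranked 7 of 10 in both pretreated H2O2 and H2O2 cells and 4 of 10 in control cells. Trp53cor1 ranked 6 in pretreated H2O2 cells, 8 in H2O2 cells and 9 in control cells. Malat1 was above 85.5% of all genes of the table in pretreated H2O2 cells, above 82.3% in H2O2 cells and above 94.4% in control cells.

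**Figure D1:**
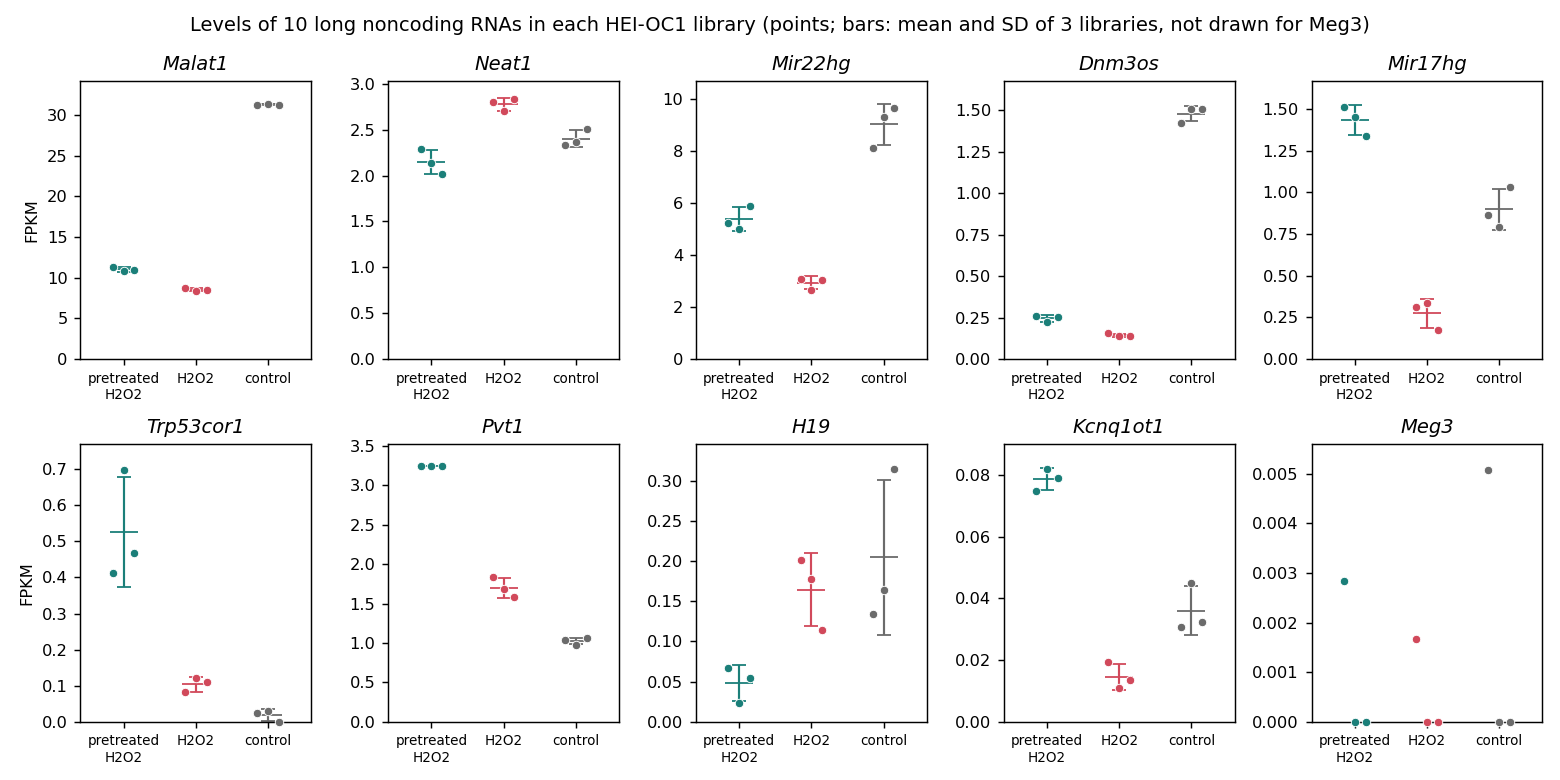
Level of each of the 10 RNAs in FPKM (y axis, linear, own scale per panel) in pretreated H2O2, H2O2 and control libraries; points are libraries and bars are the mean and SD of 3. Malat1 and Dnm3os are highest in control cells, Pvt1 and Trp53cor1 are highest in pretreated H2O2 cells, and Meg3 has a count in 1 library of each group.

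In all, 9 of the 10 RNAs passed the filter on low counts and were tested with edgeR among 18092 genes. In H2O2 against control, 8 of the 9 were called at an adjusted p under 0.05: Neat1, Pvt1 and Trp53cor1 rose, Malat1, Dnm3os, Mir22hg, Mir17hg and Kcnq1ot1 fell, and H19 was not called. Over all tested genes 48.7% were called in this comparison, 24.6% higher and 24.1% lower. The 18092 include genes that passed the filter through pretreated H2O2 cells alone. With the H2O2 and control libraries alone, 8 of the 9 RNAs and 8727 of 16044 genes were called. In pretreated H2O2 against H2O2, 7 of the 9 rose and Neat1 and H19 fell, against 63.6% of all tested genes called (32.4% higher and 31.3% lower). In pretreated H2O2 against control, Pvt1, Trp53cor1, Mir17hg and Kcnq1ot1 rose, Malat1, Dnm3os, Mir22hg and H19 fell and Neat1 was not called, against 63.1% of all tested genes called (33.7% higher and 29.5% lower). The median log2 fold change of the 9 was -1.29 in H2O2 against control, where the median of all tested genes was 0.02. It was 0.91 in pretreated H2O2 against H2O2 (all genes 0.02) and -0.12 in pretreated H2O2 against control (all genes 0.06). FPKM did not overlap between groups for 8 of the 9 in H2O2 against control. It did not overlap for 9 of the 9 in pretreated H2O2 against H2O2 and in pretreated H2O2 against control. For all tested genes overlap was taken on library-scaled counts, which did not overlap for 55.9%, 69.7% and 68.9% in this order. On library-scaled counts Neat1 overlapped in pretreated H2O2 against control, so the FPKM result of the 9 and these shares are not like for like. The comparisons share libraries and are not independent of each other. Trp53cor1 had 13 counts over the control libraries and passed the filter through its counts in H2O2-treated groups, and H19 passed through its counts in H2O2 and control cells, so their calls are given as a description. The same holds for the neighbours Kcnq1, which reached the filter in pretreated H2O2 cells alone, Trpm5, which did not reach it in all control libraries, and Igf2, which did not reach it in all pretreated H2O2 libraries.

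**Figure D2:**
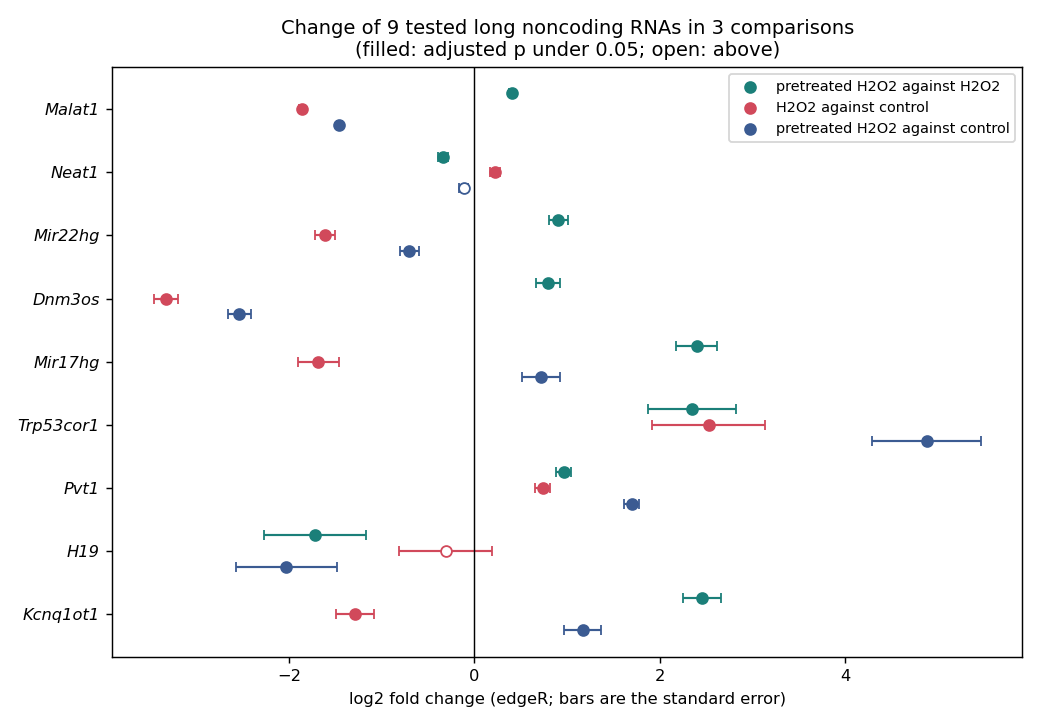
Log2 fold change from edgeR (x axis) for the 9 tested RNAs (y axis) in 3 comparisons by colour. Bars are a standard error worked back from the F statistic of the test. Filled points were called at an adjusted p under 0.05, and open points were not. Dnm3os has the lowest value with H2O2 against control (-3.33), and Trp53cor1 the highest with pretreated H2O2 against control (4.88).

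Malat1, the nuclear speckle RNA (chr19:5795690-5802672, minus strand, GRCm38; a single exon of 6983 bases), had 11.3, 10.8 and 11.0 FPKM in pretreated H2O2 cells, 8.69, 8.40 and 8.48 FPKM in H2O2 cells, and 31.2, 31.4 and 31.2 FPKM in control cells. No library of one group reached into another, and both H2O2-treated groups were far below the control cells. In H2O2 against control Malat1 fell by 1.86 on the log2 scale (SE 0.027, a 3.64-fold drop, edgeR adjusted p = 2.80e-13). In pretreated H2O2 against H2O2 it rose by 0.40 (SE 0.027, 1.32-fold, edgeR adjusted p = 5.40e-08). It was 2.75-fold lower in pretreated H2O2 than in control cells (log2 fold change -1.46, SE 0.027, edgeR adjusted p = 3.49e-13).

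Neat1, the paraspeckle scaffold, is read from the same strand at chr19:5824708-5845478, next to Malat1. Its single annotated exonic block of 20771 bases takes in both the short and the long form, which the table does not separate. Neat1 had 2.29, 2.14 and 2.02 FPKM in pretreated H2O2 cells, 2.80, 2.70 and 2.83 FPKM in H2O2 cells, and 2.33, 2.37 and 2.50 FPKM in control cells. H2O2 libraries were the highest, and pretreated H2O2 libraries all lay below the control libraries by a narrow margin in FPKM, though not in library-scaled counts. Neat1 rose by 0.22 with H2O2 against control (SE 0.049, 1.17-fold, edgeR adjusted p = 0.00214). It fell by 0.34 with pretreated H2O2 against H2O2 (SE 0.049, 1.27-fold, edgeR adjusted p = 5.65e-05). The difference between pretreated H2O2 and control was -0.12 (SE 0.049, edgeR adjusted p = 0.0537), which did not pass.

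Genes were also compared with others of like transcript length. Among 456 tested genes with an exonic length within 1.5 times that of Neat1, the median log2 fold change was -0.60 with H2O2 against control, 0.19 with pretreated H2O2 against H2O2 and -0.39 with pretreated H2O2 against control. In the 2 comparisons in which Neat1 was called, its own change had the opposite sign to this median. Among 5408 genes as long as Malat1 the medians were -0.19, 0.07 and -0.10 in the same order of comparisons. Offsets that remove each library's trend on length and GC content moved the median of all tested genes by 0.01 with H2O2 against control, by -0.32 with pretreated H2O2 against H2O2 and by -0.33 with pretreated H2O2 against control. The share of called genes that were higher was then 31.5% with pretreated H2O2 against H2O2 (50.9% as reported) and 32.3% with pretreated H2O2 against control (53.3% as reported). With these offsets Neat1 came to 0.87 with H2O2 against control (edgeR adjusted p = 2.80e-08) and to -0.62 with pretreated H2O2 against H2O2 (edgeR adjusted p = 1.62e-07). It turned to 0.25 with pretreated H2O2 against control (edgeR adjusted p = 0.000818). Relative to the moved median these last values of Neat1 were -0.30 and 0.58. Malat1 kept its directions, at -1.69, 0.30 and -1.39, the last of these -1.05 relative to the moved median. Malat1 and the long form of Neat1 are known to end in a triple helix rather than a poly(A) tail, so poly(A) selection does not recover them as it does mRNA. The part of RNA length and of poly(A) selection in the differences was not tested.

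The paraspeckle proteins, which bind Neat1, are 23 genes, all of them tested. In H2O2 against control 9 rose, 5 fell and 9 were not called (median log2 fold change 0.04). With pretreated H2O2 against H2O2, 14 rose and 3 fell (median 0.19), and with pretreated H2O2 against control 18 rose and 4 fell (median 0.22). Of all tested protein coding genes, 28% rose and 29% fell with H2O2 against control. The shares were 34% and 38% with pretreated H2O2 against H2O2, and 35% and 36% with pretreated H2O2 against control. Counts in this and the later lists are a description, to be read beside these shares and those of all tested genes. Sfpq, one of the core proteins, averaged 132 ± 1.8 FPKM in pretreated H2O2 cells, 80.1 ± 2.3 FPKM in H2O2 cells and 81.5 ± 1.6 FPKM in control cells (SD, n = 3 each). Its log2 fold change was 0.75 in pretreated H2O2 against H2O2 (SE 0.024, edgeR adjusted p = 6.01e-11). Rbm12 went the other way, at 1.77 ± 0.023 FPKM in pretreated H2O2 cells and 6.89 ± 0.58 FPKM in H2O2 cells (log2 fold change -1.93, SE 0.21, edgeR adjusted p = 4.24e-06). Hnrnpa1 rose by 0.52 with H2O2 against control (SE 0.022, edgeR adjusted p = 1.11e-09), and Zc3h6 fell by 0.74 (SE 0.17, edgeR adjusted p = 0.00307).

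Of 25 nuclear speckle proteins, the company of Malat1, 11 rose and 10 fell with H2O2 against control (median 0.06). With pretreated H2O2 against H2O2, 13 rose and 5 fell (median 0.07), and with pretreated H2O2 against control 14 rose and 5 fell (median 0.12). The splicing factor Srsf7 rose by 0.55 with H2O2 against control (SE 0.032, edgeR adjusted p = 1.89e-08), while Cdk12, a kinase of RNA polymerase II, fell by 0.87 (SE 0.051, edgeR adjusted p = 2.19e-08). Rbm25 and Srrm2 rose by 0.77 and 0.76 with pretreated H2O2 against H2O2 (SE 0.035 and 0.020, edgeR adjusted p = 1.21e-09 and 1.28e-11). The kinase Clk4 fell by 0.70 in that comparison (SE 0.072, edgeR adjusted p = 2.91e-06).

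Frmd8, a protein coding gene 4.22 kb beyond Neat1, moved less than Malat1. It had 13.4 ± 0.30 FPKM in pretreated H2O2 cells, 15.1 ± 0.62 FPKM in H2O2 cells and 15.8 ± 0.61 FPKM in control cells (SD, n = 3 each). Frmd8 was not called in H2O2 against control, with a difference of -0.05 (SE 0.039, edgeR adjusted p = 0.326), which turned to 0.03 with length and GC offsets. It fell by 0.15 in pretreated H2O2 against H2O2 (SE 0.039, edgeR adjusted p = 0.00511).

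Among the microRNA hosts, Dnm3os changed most with H2O2. This RNA, which carries miR-199a and miR-214, runs antisense within an intron of Dnm3 at chr1:162217623-162225550 on the plus strand. Dnm3os had 0.259, 0.222 and 0.256 FPKM in pretreated H2O2 cells, 0.154, 0.138 and 0.139 FPKM in H2O2 cells, and 1.42, 1.51 and 1.51 FPKM in control cells. The H2O2-treated groups lay close together and far under the control cells, and they did not overlap. Dnm3os fell by 3.33 with H2O2 against control (SE 0.13, 10.1-fold, edgeR adjusted p = 4.83e-10). It rose by 0.80 with pretreated H2O2 against H2O2 (SE 0.13, 1.74-fold, edgeR adjusted p = 0.000143) and was lower by 5.80-fold in pretreated H2O2 than in control cells (log2 fold change -2.54, SE 0.12, edgeR adjusted p = 2.25e-09). Dnm3, which encodes a dynamin and shares no exon with it, averaged 0.0211, 0.0235 and 0.0184 FPKM in pretreated H2O2, H2O2 and control cells, and was not called in any of the 3 comparisons.

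Mir22hg, the host of miR-22, lies at chr11:75461539-75466676 on the plus strand. It had 5.26, 5.00 and 5.89 FPKM in pretreated H2O2 cells, 3.09, 2.64 and 3.06 FPKM in H2O2 cells, and 8.14, 9.31 and 9.67 FPKM in control cells. The groups did not overlap, with the pretreated cells in the middle. Mir22hg fell by 1.61 with H2O2 against control (SE 0.11, 3.05-fold, edgeR adjusted p = 6.04e-08). It rose by 0.91 with pretreated H2O2 against H2O2 (SE 0.11, 1.87-fold, edgeR adjusted p = 8.69e-06), a value that came to 0.47 with length and GC offsets (edgeR adjusted p = 0.00145), or 0.79 relative to the moved median. In pretreated H2O2 against control it fell by 0.70 (SE 0.10, 1.63-fold, edgeR adjusted p = 6.27e-05), and the offsets took this to -1.22, or -0.89 relative to the moved median.

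Mir17hg carries the miR-17 to miR-92 cluster, whose microRNAs favour proliferation, at chr14:115042879-115046727 on the plus strand. Its levels were 1.51, 1.45 and 1.34 FPKM in pretreated H2O2 cells, 0.310, 0.338 and 0.176 FPKM in H2O2 cells, and 0.867, 0.795 and 1.03 FPKM in control cells. Of the 3 hosts it alone was higher in all pretreated H2O2 libraries than in any control library. Mir17hg fell by 1.68 with H2O2 against control (SE 0.22, 3.21-fold, edgeR adjusted p = 3.05e-05). It rose by 2.40 with pretreated H2O2 against H2O2 (SE 0.22, 5.28-fold, edgeR adjusted p = 9.52e-07) and by 0.72 with pretreated H2O2 against control (SE 0.20, 1.64-fold, edgeR adjusted p = 0.00817).

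Genes near Mir22hg are expressed well enough to set beside it. Prpf8, a core splicing protein, had 85.2 ± 1.1 FPKM in pretreated H2O2 cells, 68.2 ± 0.36 FPKM in H2O2 cells and 92.8 ± 1.0 FPKM in control cells (SD, n = 3 each), and Wdr81 had 3.98 ± 0.28, 2.26 ± 0.078 and 3.49 ± 0.28 FPKM. In H2O2 against control Prpf8 fell by 0.43 (SE 0.019, edgeR adjusted p = 1.49e-09) and Wdr81 fell by 0.61 (SE 0.076, edgeR adjusted p = 1.82e-05). In pretreated H2O2 against H2O2 Prpf8 rose by 0.35 (SE 0.019, edgeR adjusted p = 6.34e-09), which turned to -0.02 with length and GC offsets (0.30 relative to the moved median), and Wdr81 rose by 0.85 (SE 0.076, edgeR adjusted p = 7.21e-07), which came to 0.18 with the offsets (0.49 relative to the moved median). Tlcd2 shares 206 exonic bases with Mir22hg on the same strand, so reads there could be counted for either. Tlcd2 had 1.42 ± 0.33 FPKM in pretreated H2O2 cells and 0.451 ± 0.044 FPKM in H2O2 cells, a rise of 1.67 (SE 0.28, edgeR adjusted p = 0.000186).

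The promoter of Mir22hg is printed for its motif matches. The first base of Mir22hg in RefSeq is also the start in the files, as it is for Malat1 and Dnm3os. It spans chr11:75461289-75461588 on the plus strand of GRCm38.p6, from 250 bases before the start to 50 after it. Capitals mark matches to 2 of 8 motifs searched on both strands, CCAAT (the box bound by NF-Y, present in 37.4% of 32851 promoters of this length) and GGGCGG (the GC box, present in 35.7%).
Mir22hg promoter: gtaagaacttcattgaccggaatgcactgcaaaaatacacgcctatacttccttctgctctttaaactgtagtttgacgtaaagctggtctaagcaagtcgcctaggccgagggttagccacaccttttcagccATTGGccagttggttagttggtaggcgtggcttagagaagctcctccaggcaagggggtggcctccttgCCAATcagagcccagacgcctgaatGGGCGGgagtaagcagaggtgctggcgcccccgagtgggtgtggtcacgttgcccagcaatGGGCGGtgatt
Each motif occurred here at 2 places. At least 2 matches occurred in 11.7% of the promoters for CCAAT and in 19.5% for GGGCGG. The promoters of Malat1 and Dnm3os, also within 50 bases of the starts in the files, held none of the 8 motifs searched. The other 6 motifs were the E-box CACGTG, the AP-1 site TGANTCA, the cAMP response element TGACGTCA, the antioxidant response element core TGACNNNGC, the heat shock element GAANNTTC and the TATA box TATAAA.

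Among 16 tested genes that process microRNAs, 3 rose and 9 fell with H2O2 against control (median log2 fold change -0.27), 6 rose and 8 fell with pretreated H2O2 against H2O2 (median -0.13), and 2 rose and 10 fell with pretreated H2O2 against control (median -0.34). Tnrc6b, a partner of Argonaute in silencing, had 0.759 ± 0.057 FPKM in pretreated H2O2 cells, 1.41 ± 0.063 FPKM in H2O2 cells and 3.31 ± 0.015 FPKM in control cells (SD, n = 3 each). It fell by 1.22 with H2O2 against control (SE 0.054, edgeR adjusted p = 1.51e-09; -0.58 with length and GC offsets) and by 0.85 with pretreated H2O2 against H2O2 (SE 0.055, edgeR adjusted p = 3.65e-08). Ago2, the Argonaute that cleaves targets, rose by 1.16 with pretreated H2O2 against H2O2 (SE 0.030, edgeR adjusted p = 8.72e-12), and Dicer1 rose by 0.64 (SE 0.037, edgeR adjusted p = 1.32e-08). Of 6 other microRNA hosts tested, 1 rose and 2 fell with H2O2 against control, 2 rose and 2 fell with pretreated H2O2 against H2O2, and 2 rose and 3 fell with pretreated H2O2 against control. Mir100hg fell by 1.57 with H2O2 against control (SE 0.087, edgeR adjusted p = 1.17e-08), and Dleu2 rose by 1.30 with pretreated H2O2 against H2O2 (SE 0.12, edgeR adjusted p = 1.21e-06).

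Trp53cor1, the p53-induced RNA beside Cdkn1a, was highest in the pretreated cells. It lies at chr17:29057430-29079179 on the minus strand. Its levels were 0.412, 0.699 and 0.469 FPKM in pretreated H2O2 cells, 0.0812, 0.121 and 0.109 FPKM in H2O2 cells, and 0.0245, 0.0300 and 0 FPKM in control cells. These rest on 112, 181 and 122 counts in pretreated H2O2 cells, 20, 33 and 29 counts in H2O2 cells, and 6, 7 and 0 counts in control cells. The groups did not overlap. Trp53cor1 rose by 2.53 with H2O2 against control (SE 0.61, edgeR adjusted p = 0.00391), by 2.35 with pretreated H2O2 against H2O2 (SE 0.48, 5.09-fold, edgeR adjusted p = 0.000879) and by 4.88 with pretreated H2O2 against control (SE 0.59, edgeR adjusted p = 1.17e-05). When single libraries were left out, the values against control ranged from 1.92 to 3.11 with H2O2 and from 4.26 to 5.46 with pretreated H2O2. Both were lowest without control replicate 3, the library with 0 counts. The control libraries did not all reach the filter, so these calls are a description. Gm41556, on the other strand, shares 1645 exonic bases with it and had 166 counts over the pretreated H2O2 libraries, 13 over the H2O2 libraries and 0 over the control libraries. Whether counting used the strand is not given in the sources used here, so the reads of the 2 genes cannot be told apart.

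Cdkn1a, which encodes the cell cycle inhibitor p21, starts 11.8 kb from Trp53cor1 on the other strand. It had 154, 158 and 157 FPKM in pretreated H2O2 cells, 22.4, 24.8 and 23.6 FPKM in H2O2 cells, and 6.13, 6.02 and 6.80 FPKM in control cells. The 3 groups stood in the same order as for Trp53cor1 and did not overlap. Cdkn1a rose by 1.91 with H2O2 against control (SE 0.047, 3.77-fold, edgeR adjusted p = 1.22e-11) and by 2.75 with pretreated H2O2 against H2O2 (SE 0.044, 6.74-fold, edgeR adjusted p = 1.41e-13). On the other side, 14.1 kb away, the splicing factor Srsf3 had 60.0 ± 1.6 FPKM in pretreated H2O2 cells, 61.1 ± 1.6 FPKM in H2O2 cells and 50.2 ± 0.60 FPKM in control cells (SD, n = 3 each). Srsf3 rose by 0.30 with H2O2 against control (SE 0.025, edgeR adjusted p = 6.76e-07).

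Pvt1, a spliced RNA of 340111 bases of gene span downstream of Myc (chr15:62037986-62378096, plus strand), had 3.24, 3.25 and 3.25 FPKM in pretreated H2O2 cells, 1.83, 1.69 and 1.58 FPKM in H2O2 cells, and 1.04, 0.978 and 1.06 FPKM in control cells. Every pretreated H2O2 library was above every H2O2 library, and every H2O2 library was above every control library. Pvt1 rose by 0.74 with H2O2 against control (SE 0.079, 1.66-fold, edgeR adjusted p = 5.47e-06), by 0.96 with pretreated H2O2 against H2O2 (SE 0.077, 1.95-fold, edgeR adjusted p = 2.71e-07) and by 1.70 with pretreated H2O2 against control (SE 0.079, 3.24-fold, edgeR adjusted p = 1.72e-09). Myc, a driver of growth whose gene ends 47.6 kb before Pvt1, had another order. It had 39.3 ± 0.41 FPKM in pretreated H2O2 cells, 26.3 ± 1.6 FPKM in H2O2 cells and 37.1 ± 0.96 FPKM in control cells (SD, n = 3 each). Myc fell by 0.48 with H2O2 against control (SE 0.041, edgeR adjusted p = 6.34e-07), where Pvt1 rose. It rose by 0.61 with pretreated H2O2 against H2O2 (SE 0.041, edgeR adjusted p = 5.24e-08). In pretreated H2O2 against control the Myc value was 0.13 (SE 0.041, edgeR adjusted p = 0.0158), and with length and GC offsets it turned to -0.48 (-0.15 relative to the moved median). That call was also lost with total counts alone, with no filter, in the 3 limma fits, without control replicate 1 and without pretreated H2O2 replicate 2, at values between 0.08 and 0.12.

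The wider list of p53 and Myc genes held 15 tested genes. Of these, 5 rose and 7 fell with H2O2 against control (median -0.15), with pretreated H2O2 against H2O2 8 rose and 6 fell (median 0.13), and with pretreated H2O2 against control 9 rose and 5 fell (median 0.13). Mdm2, the p53 target that marks p53 for destruction, had 157 ± 3.3 FPKM in pretreated H2O2 cells, 12.3 ± 0.20 FPKM in H2O2 cells and 12.0 ± 0.13 FPKM in control cells (SD, n = 3 each). It rose 13.0-fold with pretreated H2O2 against H2O2 (log2 fold change 3.70, SE 0.026, edgeR adjusted p = 1.88e-16). The Trp53 mRNA rose by 0.38 with H2O2 against control (SE 0.024, edgeR adjusted p = 4.17e-08), and Tgfbr2 fell by 0.65 (SE 0.023, edgeR adjusted p = 2.73e-10).

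**Figure D3:**
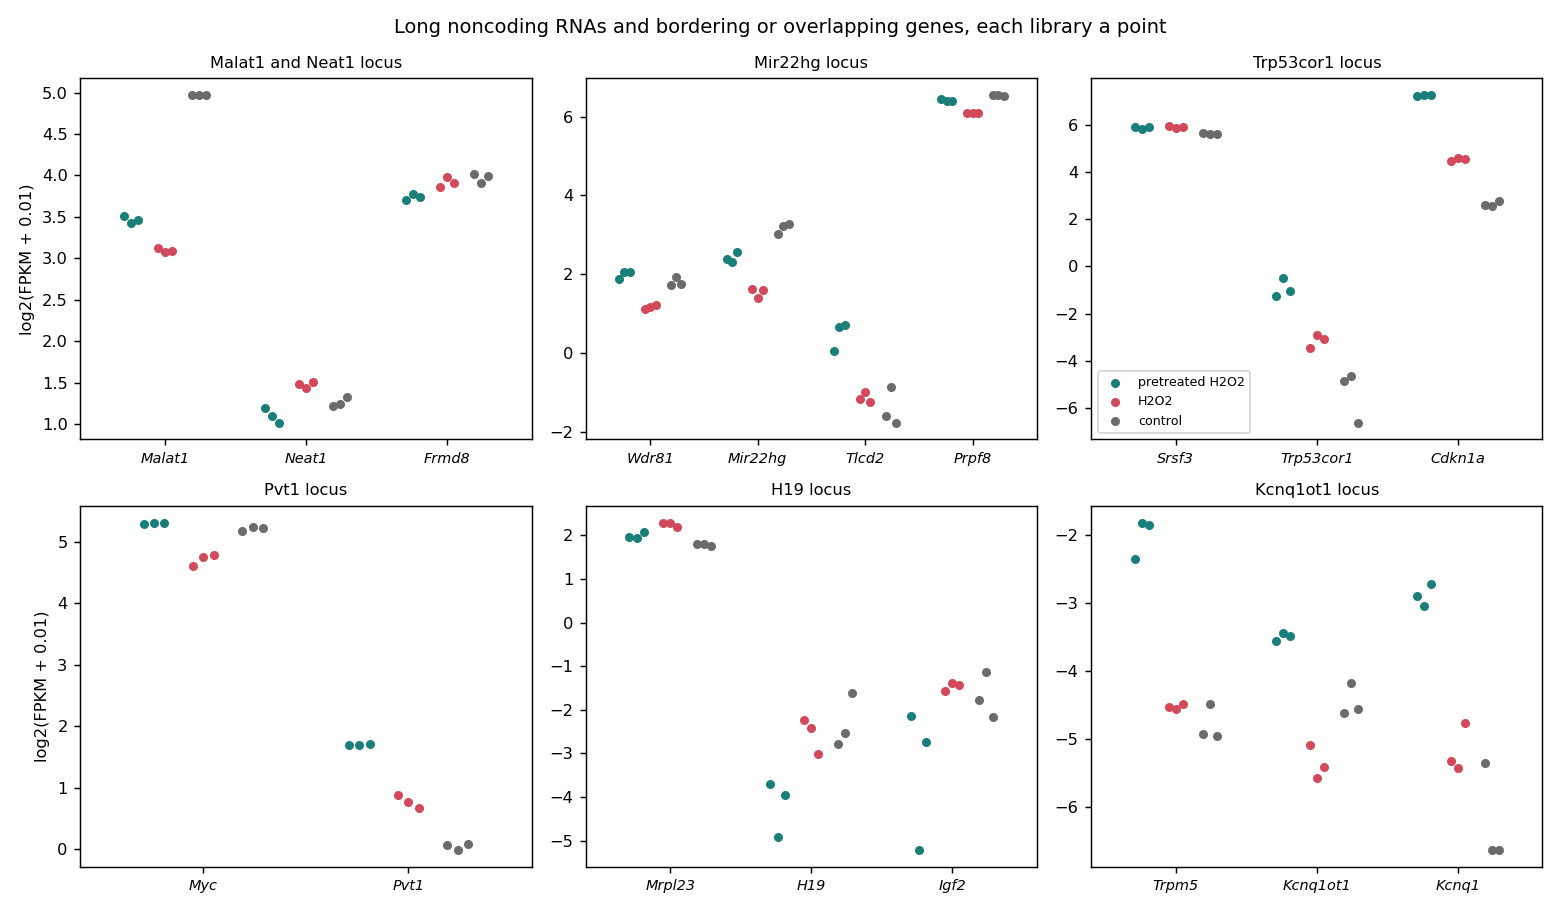
Level of 7 of the long noncoding RNAs and of genes beside or across from them, as log2(FPKM + 0.01) on the y axis, with each library a point and the groups by colour in the order pretreated H2O2, H2O2 and control. Cdkn1a and Trp53cor1 stand in the same group order (156, 23.6 and 6.32 mean FPKM for Cdkn1a), and Myc and Pvt1 stand in different orders.

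H19, an imprinted growth-restraining RNA and the host of miR-675, was scarce. It lies at chr7:142575529-142578143 on the minus strand. H19 had 0.0668, 0.0233 and 0.0549 FPKM in pretreated H2O2 cells (12, 4 and 10 counts), 0.202, 0.178 and 0.114 FPKM in H2O2 cells (33, 33 and 20 counts), and 0.134, 0.164 and 0.315 FPKM in control cells (23, 26 and 55 counts). The pretreated cells were the lowest, and the H2O2 and control libraries overlapped. The difference of -0.31 with H2O2 against control was not called (SE 0.50, edgeR adjusted p = 0.662), and it turned to 0.10 without control replicate 3. H19 fell by 1.72 with pretreated H2O2 against H2O2 (SE 0.55, 3.29-fold, edgeR adjusted p = 0.0153), a call that was lost without pretreated H2O2 replicate 2 (-1.39, edgeR adjusted p = 0.0527). With pretreated H2O2 against control it fell by 2.03 (SE 0.55, 4.08-fold, edgeR adjusted p = 0.00602), and length and GC offsets took this to -2.62, or -2.29 relative to the moved median.

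Igf2, the growth factor gene that shares enhancers with H19, had 0.218, 0.0168 and 0.139 FPKM in pretreated H2O2 cells, 0.330, 0.375 and 0.363 FPKM in H2O2 cells, and 0.285, 0.449 and 0.212 FPKM in control cells. Its lowest library, pretreated H2O2 replicate 2, was also the lowest for H19. Igf2 fell by 1.44 with pretreated H2O2 against H2O2 (SE 0.54, edgeR adjusted p = 0.0327), and the call was lost with no filter, without any 1 of the 3 H2O2 libraries and without pretreated H2O2 replicate 3, at values between -1.52 and -1.41. Without pretreated H2O2 replicate 1 the value was -2.09. The difference with pretreated H2O2 against control was -1.26 (SE 0.54, edgeR adjusted p = 0.0594). It was called without pretreated H2O2 replicate 1 (-1.91, edgeR adjusted p = 0.0161), without control replicate 3 (-1.49), with DESeq2 (-1.23), with counts divided by 4 (-1.20), with length and GC offsets (-1.55) and in limma with both pseudocounts. Mrpl23, a mitochondrial ribosomal protein gene 34.8 kb on the other side of H19, rose by 0.48 with H2O2 against control (SE 0.064, edgeR adjusted p = 3.86e-05) and fell by 0.24 with pretreated H2O2 against H2O2 (SE 0.064, edgeR adjusted p = 0.00585).

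Kcnq1ot1, an unspliced antisense RNA of 93092 bases within Kcnq1 (chr7:143203458-143296549, minus strand), was lowest in the H2O2 cells. It had 506, 528 and 513 counts in pretreated H2O2 cells, 117, 74 and 90 counts in H2O2 cells, and 188, 253 and 213 counts in control cells. Per length these were low levels, at 0.0748, 0.0820 and 0.0791 FPKM in pretreated H2O2 cells, 0.0193, 0.0110 and 0.0135 FPKM in H2O2 cells, and 0.0308, 0.0451 and 0.0322 FPKM in control cells. The groups did not overlap. Kcnq1ot1 fell by 1.29 with H2O2 against control (SE 0.21, 2.44-fold, edgeR adjusted p = 0.000196), which came to -0.81 with length and GC offsets (edgeR adjusted p = 0.00656). It rose by 2.45 with pretreated H2O2 against H2O2 (SE 0.21, 5.48-fold, edgeR adjusted p = 4.77e-07) and by 1.17 with pretreated H2O2 against control (SE 0.20, 2.25-fold, edgeR adjusted p = 0.000208). With the offsets this last value came to 1.60, or 1.93 relative to the moved median. Only 3 tested genes were of like length, so no comparison with genes of its length could be made. For the offsets, length was clipped at the 99th percentile of tested genes, so Kcnq1ot1 received the offset of a shorter RNA.

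The host gene Kcnq1, a potassium channel gene of the inner ear read from the other strand, shares 121 exonic bases with Kcnq1ot1 and had 110, 16 and 4 counts in total in pretreated H2O2, H2O2 and control cells. Its log2 fold change with pretreated H2O2 against H2O2 was 2.76 (SE 0.78), given as a description since only the pretreated H2O2 libraries carried it through the filter. Trpm5, the nearest tested protein coding gene on the left, had 0.243 ± 0.049 FPKM in pretreated H2O2 cells, 0.0335 ± 0.0012 FPKM in H2O2 cells and 0.0264 ± 0.0069 FPKM in control cells (SD, n = 3 each). Trpm5 rose by 2.87 with pretreated H2O2 against H2O2 (SE 0.33, edgeR adjusted p = 8.01e-06). Reads from Kcnq1 and Kcnq1ot1 cannot be told apart where the 2 overlap unless counting used the strand.

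The Kcnq1ot1 promoter, chr7:143296498-143296797 on the minus strand of GRCm38.p6, is shown for its repeated CCAAT boxes, which this promoter is known for. Capitals mark 3 matches to CCAAT and 1 to the antioxidant response element core TGACNNNGC, here on the opposite strand.
Kcnq1ot1 promoter: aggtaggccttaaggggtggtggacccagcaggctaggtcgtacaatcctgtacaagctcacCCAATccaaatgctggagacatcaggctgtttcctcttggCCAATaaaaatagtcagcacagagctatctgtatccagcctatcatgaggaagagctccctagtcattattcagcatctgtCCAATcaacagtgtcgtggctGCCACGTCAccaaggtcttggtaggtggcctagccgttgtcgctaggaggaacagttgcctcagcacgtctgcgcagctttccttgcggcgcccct
At least 3 CCAAT matches occurred in 3.37% of the 32851 promoters, and the antioxidant core in 12.4%. A match describes letters and is not evidence that a factor bound there.

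Meg3, the maternally expressed RNA of the Dlk1 cluster (chr12:109541001-109571721, plus strand), had 4, 0 and 0 counts in pretreated H2O2 cells, 2, 0 and 0 counts in H2O2 cells, and 7, 0 and 0 counts in control cells. It did not pass the filter and was not tested. Among the 21 genes listed around these 3 imprinted RNAs, 10 were tested. The list also holds Ctcf, which lies on chromosome 8, outside these loci, and is counted among the falls in each of the 3 comparisons. Of the 10, 3 rose and 3 fell with H2O2 against control (median 0.16), with pretreated H2O2 against H2O2 6 rose and 3 fell (median 0.20), and with pretreated H2O2 against control 7 rose and 1 fell (median 0.26). The membrane protein gene Cd81 fell by 0.98 with H2O2 against control (SE 0.044, edgeR adjusted p = 2.01e-09) and rose by 1.09 with pretreated H2O2 against H2O2 (SE 0.044, edgeR adjusted p = 4.60e-10). Ctcf, the insulator protein that binds between H19 and Igf2, was the 1 gene that fell with pretreated H2O2 against control, by 0.50 (SE 0.029, edgeR adjusted p = 1.44e-08).

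Over all loci, 22 genes were tested that overlap the 10 RNAs or are the nearest tested protein coding gene on either side. No distance limit was set, and Tpm3-rs7 lies 1726 kb from Mir17hg. Of the 22, 7 rose, 4 fell and 11 were not called with H2O2 against control (48.7% of all tested genes called). With pretreated H2O2 against H2O2 11 rose and 6 fell (63.6%), and with pretreated H2O2 against control 12 rose and 5 fell (63.1%). Gsdmc4 and Kcnq1 reached the filter in pretreated H2O2 cells alone, and Gm41556 had 0 counts in control cells, so their calls are a description.

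**Figure D4:**
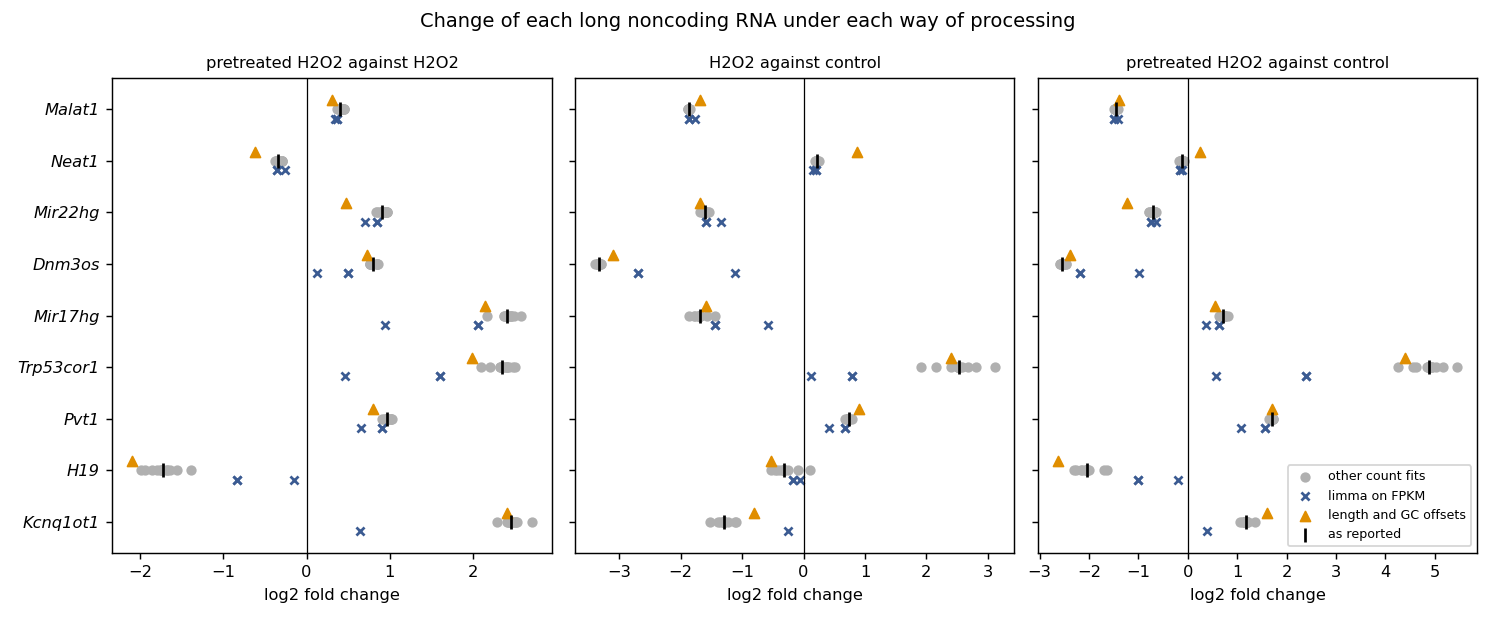
Log2 fold change (x axis) of the 9 tested RNAs (y axis) under each way of processing in 3 comparisons; black bars are the reported values, grey points other count fits, crosses limma on log2(FPKM + pseudocount) and triangles fits with length and GC offsets. Neat1 lies on the other side of 0 with the offsets in pretreated H2O2 against control (0.25, while the reported value was -0.12), and limma values of scarce RNAs are pulled toward 0 by the pseudocount.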

How the data were processed

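RNA of 9 HEI-OC1 libraries was polyadenylated RNA extracted with TRIzol and sequenced as stranded dUTP libraries in 150 bp paired reads, per the labels' protocols. No source used here gives the aligner, the counter or its strand setting. The submitters' processing notes name only the build hg38, but the files hold mouse genes: 30318 of 30411 were found in GENCODE M21 (GRCm38), 99.5% with the same start. The authors deposited estimated counts for 55401 genes, whole numbers not scaled to library size, and FPKM computed by the authors for the 30411 genes with a count. Of the deposited counts 7779 values equal 1, 6750 equal 2, 4842 equal 3 and 9836 equal 4. Values of 8 (4196) also outnumbered those of 7 (2600) and 9 (2014). Some fragments may thus have been written as about 4 counts, but the many values of 1 and 2 show that this did not hold throughout.

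Counts were tested in edgeR 4.0.16 (quasi-likelihood test, TMM scaling, filterByExpr with a minimum count of 10, all 9 libraries, 1 mean per group), with Benjamini-Hochberg adjustment over 18092 genes and a threshold of 0.05. The script was tested on simulated data. FPKM serves for levels between genes and is the authors' value. Fold changes come from counts. The SE beside each was worked back from the test, as the absolute log2 fold change divided by the square root of the F statistic. Totals of 55395418 to 67215208 counts limit precision mainly for RNAs with under 100 counts. Alternatives were RLE scaling, total counts, no filter, DESeq2 1.42.0, 6 libraries alone, a replicate block, limma 3.58.1 on log2(FPKM + 0.1) and log2(FPKM + 1), counts divided by 4, offsets on length and GC content, and each library left out. For the offsets, length and GC content were clipped at percentiles 1 and 99 of the tested genes.

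The RNAs and the gene lists were chosen with earlier results of these data known. Named beside the 10 RNAs were, from up to 2 largest rises and 2 largest falls per list and comparison (called, mean of at least 1 CPM, groups not overlapping), and from genes that overlap or border them; not all are printed. Promoters and microRNAs came from RefSeq: 6 of 10 RNAs had a promoter entry and 5 matched the start in the files within 50 bases.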

Additional observations from a re-analysis of the deposited data

How the results depend on the processing

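The number of the 9 RNAs called stayed within 1.5 times the reported count under every alternative run, at 6 to 8 with H2O2 against control, 7 to 9 with pretreated H2O2 against H2O2 and 7 to 9 with pretreated H2O2 against control, and so did the number of all genes called. The same-numbered libraries deviated together by correlations of only -0.02 to 0.05 over all tested genes. A weak pairing, or 1 limited to few genes, would not show in this check, so pairing is not excluded. With a replicate block 8, 9 and 8 RNAs were called (8603, 11322 and 11181 genes), and no RNA changed its call. Neat1 with pretreated H2O2 against control (-0.12, not called) was called with total counts alone (-0.16) and ranged from -0.17 to -0.08 when single libraries were left out, and was called without control replicate 1 (-0.15) and without pretreated H2O2 replicate 1 (-0.17). It reversed to 0.25 with length and GC offsets. H19 with H2O2 against control ranged from -0.53 to 0.10 when single libraries were left out, the last without control replicate 3. H19 with pretreated H2O2 against H2O2 ranged from -1.99 to -1.39, and limma on log2(FPKM + 1) gave -0.15, not called. In limma with H2O2 against control, Kcnq1ot1 (-0.25, FPKM + 0.1 without a filter) and Trp53cor1 (0.12, FPKM + 1) were not called. The length and GC offsets also reversed Frmd8 (0.03) and Tlcd2 (-0.03) with H2O2 against control, Prpf8 with pretreated H2O2 against H2O2 (-0.02) and Myc with pretreated H2O2 against control (-0.48). The causes were not tested. H19 and Trp53cor1 have the least depth, and H19 was not tested once counts were divided by 4. Kcnq1ot1 fell under the FPKM filter of 0.1 and has no value in limma with that filter.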

Other observations

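Of 1704 tested genes of the long noncoding types of GENCODE M21, 168 rose and 163 fell with H2O2 against control, together 19.4%, beside 56.8% of 13812 protein coding genes called. With pretreated H2O2 against H2O2, 625 rose and 141 fell (together 45.0%, median log2 fold change 0.69), beside 72.0% of protein coding genes called. With pretreated H2O2 against control 633 rose and 148 fell (together 45.8%, median 0.67), beside 71.2% of protein coding genes called. Both classes thus had higher shares called in the comparisons with pretreated cells, and the difference between the classes was not tested. Among protein coding genes 4717 rose and 5225 fell with pretreated H2O2 against H2O2 (median -0.03). More genes had a count in the pretreated H2O2 libraries than in the others. The filter used all 9 libraries, so it also let in genes that reached it in pretreated H2O2 cells alone. Such genes are high in those cells by selection and so lean toward rises. With the H2O2 and control libraries alone 16044 genes passed, and with all 9 libraries 18092 passed. The class counts and medians are therefore a description, and the part of the filter in them was not tested. Among 25 other named long noncoding RNAs, 12 rose and 4 fell with H2O2 against control (median 0.34), 7 rose and 10 fell with pretreated H2O2 against H2O2 (median -0.09), and 14 rose and 4 fell with pretreated H2O2 against control (median 0.43). Snhg12, a snoRNA host, had 8.37 ± 0.31 FPKM in pretreated H2O2 cells, 15.2 ± 0.27 FPKM in H2O2 cells and 4.73 ± 0.53 FPKM in control cells (SD, n = 3 each). Fendrr had 0.965 ± 0.10, 0.0423 ± 0.015 and 0.0183 ± 0.0088 FPKM in the same order of groups, and Lncpint had 0.672 ± 0.049, 0.229 ± 0.048 and 0.177 ± 0.018 FPKM. Fendrr reached the filter in pretreated H2O2 cells alone (682 counts in total, with 32 in H2O2 and 14 in control cells), so its values are a description. Lncpint, a p53-regulated RNA, rose by 1.56 with pretreated H2O2 against H2O2 (SE 0.18, edgeR adjusted p = 7.33e-06).

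Polycomb and RNA methylation genes, partners of nuclear long noncoding RNAs, were 21 tested genes. Of these 6 rose and 9 fell with H2O2 against control (median -0.09), 7 rose and 11 fell with pretreated H2O2 against H2O2 (median -0.13), and 7 rose and 12 fell with pretreated H2O2 against control (median -0.18). Ythdc1, a nuclear reader of methylated RNA, rose by 1.77 with pretreated H2O2 against H2O2 (SE 0.048, edgeR adjusted p = 1.27e-11), and the Polycomb protein gene Cbx7 fell by 1.03 (SE 0.15, edgeR adjusted p = 6.96e-05). Of 14 other imprinted genes tested, 2 rose and 8 fell with H2O2 against control (median -0.45), 5 rose and 5 fell with pretreated H2O2 against H2O2 (median 0.07), and 2 rose and 5 fell with pretreated H2O2 against control (median 0.00). Peg10 had 44.9 ± 1.2 FPKM in pretreated H2O2 cells, 71.3 ± 0.80 FPKM in H2O2 cells and 139 ± 1.4 FPKM in control cells (SD, n = 3 each). Of 17 heat shock, hypoxia and nuclear RNA decay genes, 8 rose and 5 fell with H2O2 against control (median -0.04), 7 rose and 8 fell with pretreated H2O2 against H2O2 (median -0.21), and 6 rose and 7 fell with pretreated H2O2 against control (median 0.04). The heat shock gene Hspa1b had 1.70 ± 0.036 FPKM in pretreated H2O2 cells, 29.1 ± 0.61 FPKM in H2O2 cells and 4.27 ± 0.22 FPKM in control cells (SD, n = 3 each); it has a near-identical copy, Hspa1a, and reads may be split between them.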
